A study of Homo sapiens with 2 samples.

Results

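The kinesin motor genes were taken as all protein-coding genes whose GRCh37 symbol starts with KIF and a number, or with KIFC and a number. This gave 42 of the 63677 gene IDs counted in the study. RNA was sequenced from MDA-MB-231, an established human breast cancer cell line, in 1 library of cells treated with CCE, an extract of the plant Carpesium cernuum, and 1 library of control cells. Both samples carry the same protocol text, an exposure of 24 h to 1 µg/mL, so the groups were taken from the treatment label of each, and the labels do not say what was given to the control cells. A single library stands for each group. No ratio could therefore be checked against replicates or tested: each one compares these 2 libraries and carries an exact 95% Clopper-Pearson interval that covers counting error only.

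Kinesins are motor proteins that bind microtubules through a conserved motor domain and turn ATP hydrolysis into movement along the filament or into shortening of its end. Mitotic kinesins build and steer the spindle, move chromosomes and carry out cytokinesis, and in cultured cells their mRNAs are made mainly in the G2 and M phases of the cell cycle. Transport kinesins carry vesicles, mitochondria, endosomes and mRNA through the cytoplasm in cells that are not dividing as well. The members were divided into 14 mitotic, 15 transport and 13 other kinesins, the last with mostly ciliary, centriolar or microtubule-regulating roles.

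The CCE library held 34884501 counts on genes and the control library 5633569, so the control library set the precision. Levels are in TMM-scaled CPM, in which 1 count was worth 0.0283 CPM in the CCE library and 0.180 CPM in the control library. Genes averaging 1 CPM or more over both libraries are called measured, and 14424 genes were. Over all of these the median log2 ratio, CCE over control, was 0.05. Markers of the cell line were checked: the mesenchymal marker VIM had 1801 CPM in the CCE library and 3739 CPM in the control library, and the estrogen receptor gene ESR1 had 0 counts in both. The epithelial marker CDH1 had 1 count in the CCE library and 0 counts in the control library. ERBB2, listed as low in this line, was well detected, at 51.8 CPM in the CCE library and 55.4 CPM in the control library. Summed markers of leukocytes, endothelium and fibroblasts stayed under 2 CPM in each library (4, 2 and 3 genes matched by symbol), and the endothelial marker CDH5 was at 0 in both. Their part in the results was not tested.

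Of the 42 kinesin genes, 30 were measured: 12 mitotic, 11 transport and 7 other. Every one of the 12 measured mitotic kinesins had a log2 ratio below 0, against 46.1% of all measured genes. The interval of each lay wholly below 0, as it did for 25.1% of all measured genes. Intervals narrow with depth, and the classes differed in it. The median level in the control library was 61.6 CPM for measured mitotic kinesins and 22.3 CPM for all measured genes. The median log2 ratio of the mitotic kinesins was -0.93, with a range from -1.35 to -0.21, which amounts to 1.90 times lower at the median. In bulk RNA, fewer cells in mitosis and less of these mRNAs in each cell cannot be told apart. The 11 measured transport kinesins had a median of 0.11, with a range from -0.33 to 0.37, and 7 of them were above 0, against 53.9% of all measured genes. The medians of the mitotic and the transport class differed by -1.04 on the log2 scale. In 131 of the 132 pairs of 1 measured mitotic and 1 measured transport kinesin, the mitotic member had the lower ratio. The exception was KIF14 and KIFC3. The pairs reuse the same 12 and 11 genes, and not all are ordered within counting error. The intervals of KIF4A, KIF15, KIF18A, KIF22 and KIF14 overlapped that of KIFC3, among others. By the authors' FPKM values, a second measure deposited for each library, 7 of the 12 mitotic kinesins were below 0 and 5 above, with 4 of those 5 listed at 0 FPKM in the control library. On the log2(FPKM + 1) scale 4 of the 12 mitotic kinesins were at least 2-fold lower, against 13.9% of all measured genes, and 11 of the 30 kinesins were at least 2-fold higher, against 14.4%. With a pseudocount of 0.1 these counts were 4 of 12, against 18.2%, and 13 of 30, against 21.7%.

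**Figure D1:**
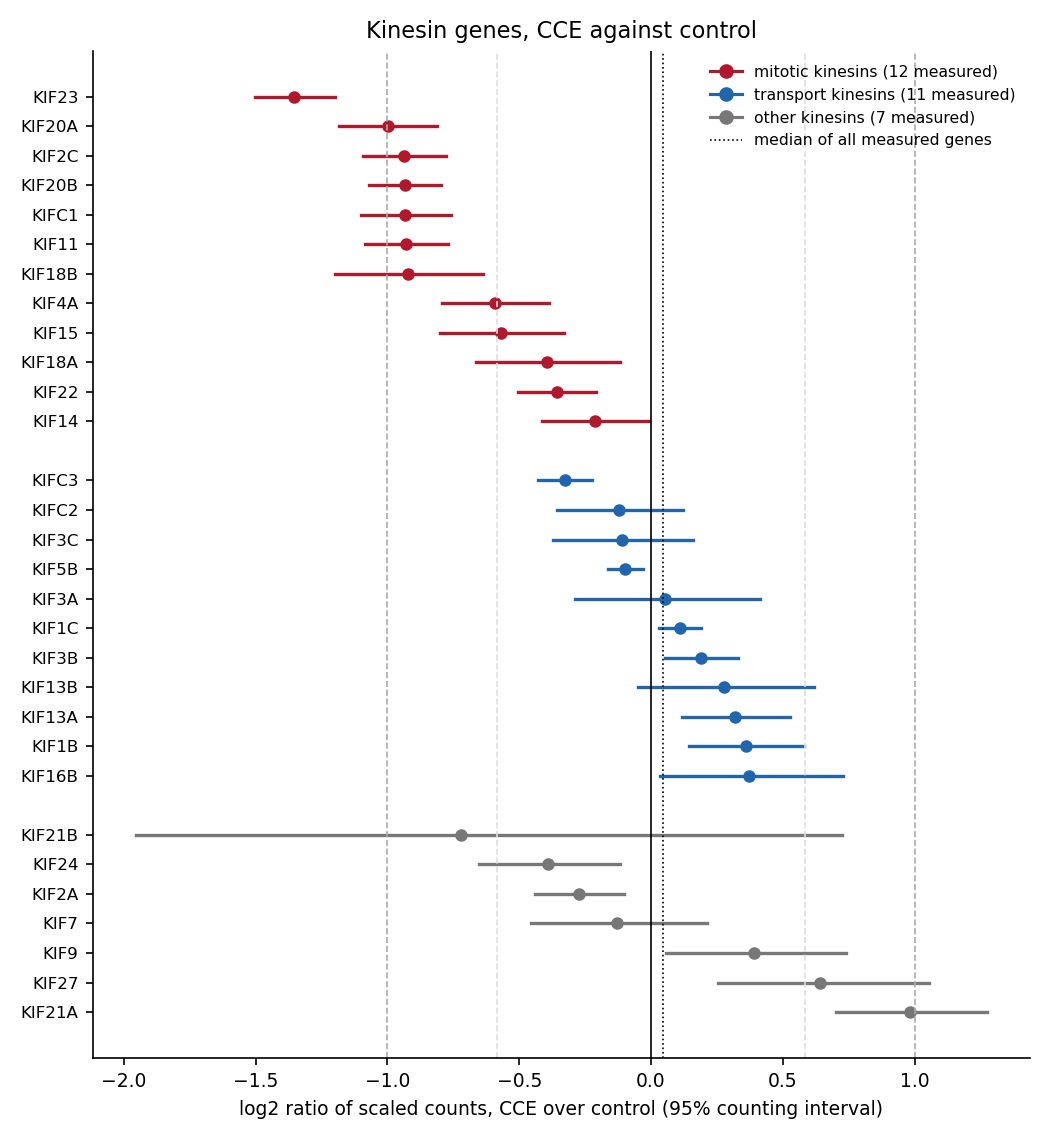
Ratio of TMM-scaled counts on a log2 axis (CCE over control, horizontal) for the 30 measured kinesin genes by class, with bars for the 95% counting interval. Dashed lines mark 2-fold and 1.5-fold, and the dotted line marks the median of all measured genes (0.05). All 12 mitotic kinesins lie left of 0, and the transport kinesins lie between -0.33 and 0.37.

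At a threshold of 1.5-fold, with the interval excluding 1, 8 of the 12 measured mitotic kinesins were lower, against 11.3% of all measured genes and 10.9% of measured protein-coding genes. None of the 11 transport and none of the 7 other kinesins was lower at that threshold. At 2-fold, 1 of the 12 mitotic kinesins, KIF23, was lower, against 4.92% of all measured genes. The 2-fold count hung on small differences, since 6 further members lay between -0.999 and -0.92. KIF20A lay just outside the threshold at -0.999. The member count at 1.5-fold was set as closely: KIF4A was inside at -0.592 and KIF15 outside at -0.568.

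The kinesins of the central spindle and of cytokinesis held both the lowest ratio and the highest one of the mitotic class. KIF23, also called MKLP1, is the motor subunit of centralspindlin, the complex that bundles microtubules between the separating chromosomes and sets the site of cleavage. It had 1252 counts in the CCE library and 503 counts in the control library, or 35.4 CPM and 90.5 CPM. Its level in CCE cells was 39.2% of that in control cells, at a log2 ratio of -1.35 (interval -1.50 to -1.20). The intervals of all 11 other measured mitotic kinesins lay wholly above that of KIF23. Its exons share 3.51% of their length with KIF23-AS1 on the opposite strand.

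KIF20A, or MKLP2, brings the chromosomal passenger complex from the chromosomes to the central spindle. It shares 5.35% of its exonic length with BRD8 and CDC23 on the opposite strand. It had 1008 counts in the CCE library and 317 counts in the control library, or 28.5 CPM and 57.0 CPM, at a log2 ratio of -0.999 (-1.18 to -0.81). KIF20B, which acts late in cytokinesis, had 54.4 CPM (1922 counts) in the CCE library and 103.95 CPM (578 counts) in the control library, at -0.93 (-1.07 to -0.80). KIF14, which localises citron kinase to the midbody, had 37.1 CPM (1311 counts) in the CCE library and 43.0 CPM (239 counts) in the control library. Its log2 ratio of -0.21 (-0.41 to -0.01) was the nearest to 0 in the class, and 7 of the 11 other intervals lay wholly below its own.

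Of the motors that shape the spindle, KIF11 and KIFC1 had nearly the same ratio and KIF15 one nearer to 0. KIF11, known as Eg5, slides antiparallel microtubules apart and so makes the spindle bipolar. It had 41.2 CPM in the CCE library and 78.4 CPM in the control library, at a log2 ratio of -0.93 (-1.08 to -0.77), from 1456 and 436 counts. KIFC1, a minus-end-directed motor that draws poles and surplus centrosomes together, had 34.7 CPM (1226 counts) in the CCE library and 66.2 CPM (368 counts) in the control library, also at -0.93 (-1.10 to -0.76). KIF15, which can take over part of the work of KIF11, had 22.3 CPM (789 counts) in the CCE library and 33.1 CPM (184 counts) in the control library, at -0.57 (-0.80 to -0.33). The lower end of the KIF15 interval overlapped the upper ends of those of KIF11 and KIFC1. KIFC1 shares 13.99% of its exonic length with RPL12P1 on the opposite strand.

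Of the kinesins that shorten microtubules or slow their growth, 2 lay near KIF11 and 1 nearer to 0. KIF2C, or MCAK, removes tubulin from microtubule ends at kinetochores and corrects wrong attachments. It had 40.5 CPM (1432 counts) in the CCE library and 77.5 CPM (431 counts) in the control library, at -0.94 (-1.09 to -0.78). KIF18B, which works with KIF2C on astral microtubules, had 13.2 CPM (466 counts) in the CCE library and 25.0 CPM (139 counts) in the control library, at -0.92 (-1.20 to -0.64). KIF18A, which damps chromosome movements at the metaphase plate, had 18.7 CPM (662 counts) in the CCE library and 24.6 CPM (137 counts) in the control library, at -0.40 (-0.66 to -0.12). The intervals of KIF18A and KIF18B overlapped.

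The measured chromosome-bound kinesins, KIF4A and KIF22, lay nearer to 0 than KIF11, as did KIF15, KIF18A and KIF14 of the other groups. The interval of KIF4A overlapped those of 8 of the 11 other measured mitotic kinesins, KIF11 included. KIF4A, a chromokinesin that also sets the length of the central spindle with PRC1, had 29.6 CPM (1046 counts) in the CCE library and 44.6 CPM (248 counts) in the control library, at -0.59 (-0.79 to -0.39). KIF22, or Kid, pushes chromosome arms away from the poles. It shares 7.83% of its exonic length with a gene on the opposite strand, and had 63.9 CPM (2258 counts) in the CCE library and 81.8 CPM (455 counts) in the control library, at -0.36 (-0.50 to -0.21). KIF4B, a near copy of KIF4A on another chromosome, had 14 counts in the CCE library and 0 counts in the control library. Both values lay under the level of 0.540 CPM that 3 counts mean in the control library, so no fold is given. The canonical transcripts of KIF4A and KIF4B are 94.35% identical and share 13.97% of their 50-base words, so the division of reads between them is uncertain. KIF2B, a spindle motor, had 0 counts in both libraries.

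**Figure D2:**
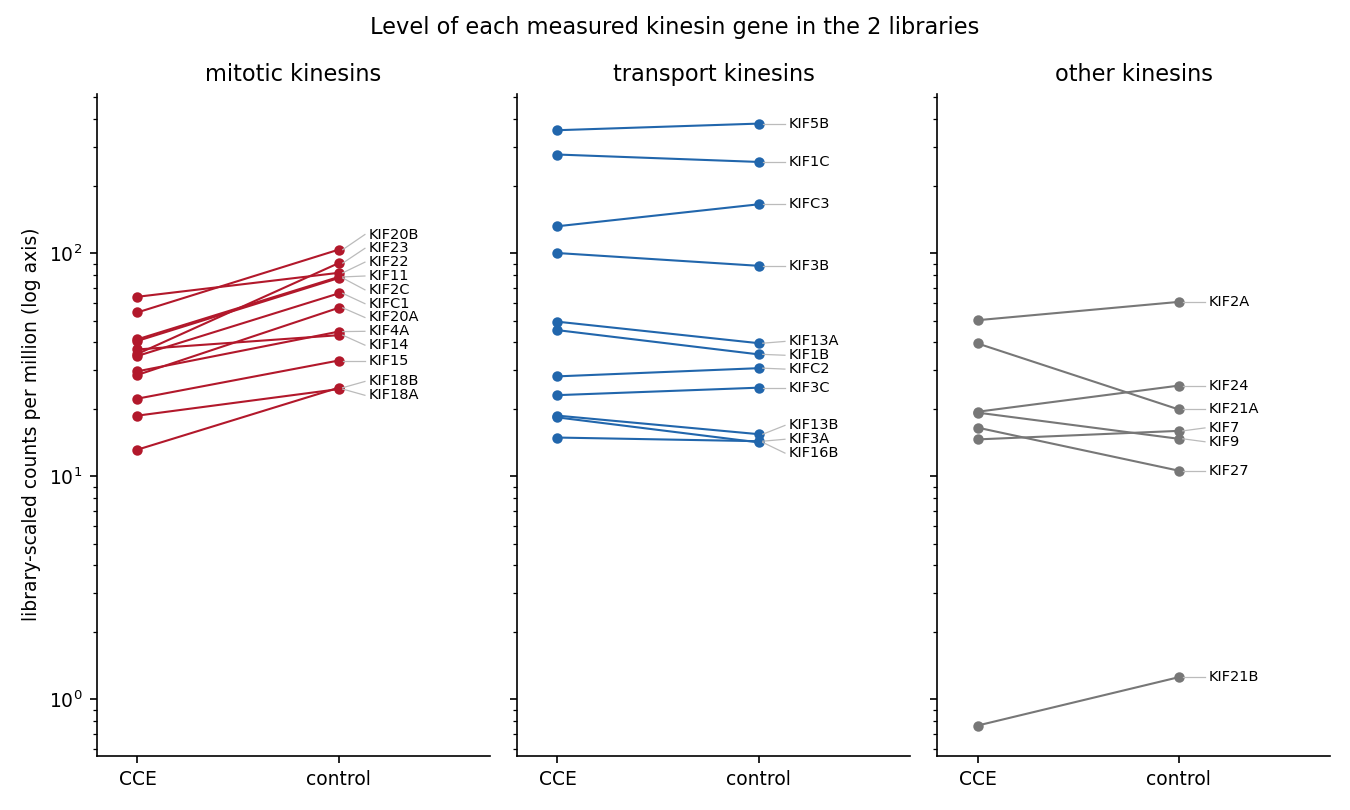
TMM-scaled CPM (log axis) of each measured kinesin gene in the CCE and the control library, joined by a line, 1 panel per class. The CCE point lies below the control point for all 12 mitotic kinesins, and for 4 of the 11 transport kinesins.

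Summed over the class, mitotic kinesins had 419.9 CPM in the CCE library and 725.7 CPM in the control library, a log2 ratio of -0.79 (-0.84 to -0.74). Transport kinesins summed to 1065 CPM in the CCE library and 1069 CPM in the control library, at -0.01 (-0.04 to 0.03). The ratio of mitotic to transport kinesin counts was 0.394 in the CCE library and 0.679 in the control library.

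**Figure D3:**
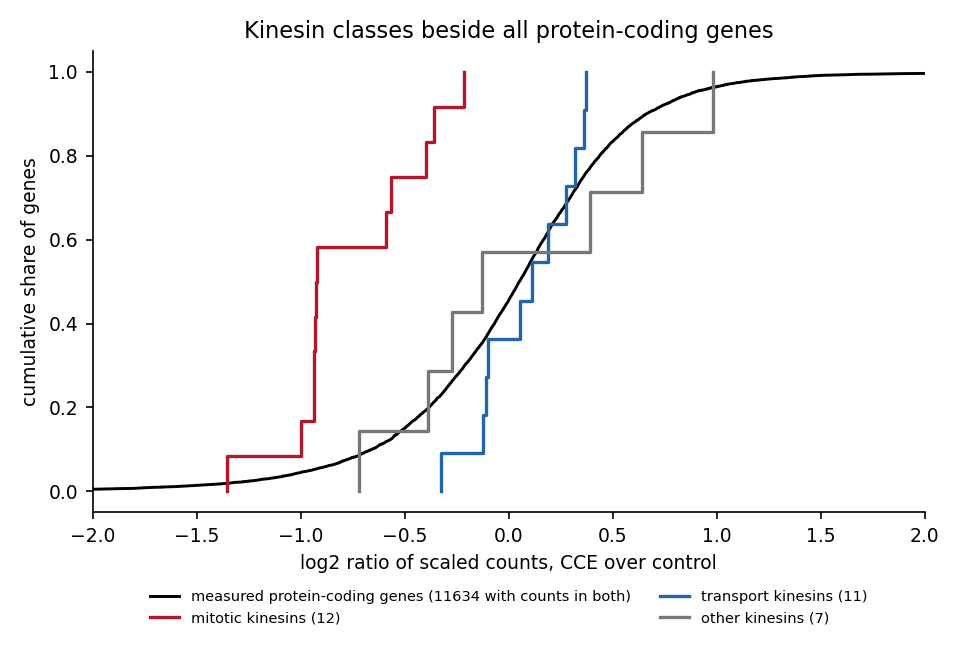
Cumulative share of genes (vertical axis) against the log2 ratio, CCE over control (horizontal axis, cropped at -2 and 2), for measured protein-coding genes and the 3 kinesin classes. The mitotic curve reaches 1.0 left of 0, and the transport curve crosses that of all protein-coding genes.

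Promoters of many genes of the G2 and M phases carry a cell cycle homology region, or CHR, a short element to which the DREAM and MYB-MuvB complexes bind, with CCAAT boxes for the factor NF-Y upstream of it. RefSeq promoters (250 bases before to 50 bases from each start, GRCh38.p14) were searched on both strands for the CHR as TTTGAA or TTCGAA, for CCAAT, and for the E2F sites TTTCGCGC and TTTGGCGC. No pattern contains another, though their ends can overlap. All 14 mitotic, 11 of 15 transport and 9 of 13 other kinesins had a promoter in the table. A CHR stood in 11 of 14 mitotic, 1 of 11 transport and 1 of 9 other kinesin promoters, against 19.5% of all 27305 genes in the table. CHR and CCAAT were both found for 10 of 14 mitotic kinesins, against 9.02% of all genes. Matches were pooled over all promoters of a gene, so the elements need not lie in the same promoter. Of single promoters, 6.38% held both. An E2F site stood in 1 mitotic promoter, that of KIF15, where it ends at the base before the CHR, and in 382 of the 27305 genes. These are matches of letters and not shown to be bound. Forms of the CHR other than TTTGAA and TTCGAA were not searched for.

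The stretches before the start of KIF11 and KIF4A are printed because both hold 1 CCAAT and 1 CHR. That of KIF20A is printed because its log2 ratio was -0.999 with neither searched form of the CHR in its window. The stretch of KIF5B is printed because it is the transport kinesin with a CHR. Each runs 5′ to 3′ on the gene's strand up to the base before the start, placed in GRCh37 by exact match, with the CCAAT box and the CHR in capitals, some of them as the reverse complement because they stand on the other strand.
KIF11, chr10:94352777-94352886, plus strand: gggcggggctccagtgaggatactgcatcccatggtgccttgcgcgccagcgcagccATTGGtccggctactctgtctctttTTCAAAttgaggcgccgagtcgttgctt
KIF4A, chrX:69509844-69509953, plus strand: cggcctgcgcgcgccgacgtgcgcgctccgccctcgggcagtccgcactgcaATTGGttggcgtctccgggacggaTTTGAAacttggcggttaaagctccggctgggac
KIF20A, chr5:137514691-137514800, plus strand: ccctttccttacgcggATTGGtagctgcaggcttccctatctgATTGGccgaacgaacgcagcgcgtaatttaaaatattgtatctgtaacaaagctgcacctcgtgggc
KIF5B, chr10:32345354-32345503, minus strand: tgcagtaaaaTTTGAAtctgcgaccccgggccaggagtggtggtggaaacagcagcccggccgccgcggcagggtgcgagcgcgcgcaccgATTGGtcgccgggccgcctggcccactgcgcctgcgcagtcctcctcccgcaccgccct

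Counted from the start, the CCAAT of KIF11 began at -53 and its CHR at -28. In KIF4A the CCAAT began at -58 and the CHR at -34. In KIF5B the order was turned round, with the CHR at -140 and the CCAAT at -59. The CHR of the other measured mitotic kinesins is printed in windows of 30 bases, so that the element can be compared between the gene with the lowest ratio, KIF23, and the one nearest to 0, KIF14.
KIF23, chr15:69706621-69706650, plus strand: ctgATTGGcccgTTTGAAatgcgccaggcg
KIF20B, chr10:91461359-91461388, plus strand: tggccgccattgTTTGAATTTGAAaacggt
KIFC1, chr6:33359592-33359621, plus strand: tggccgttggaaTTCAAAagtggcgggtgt
KIF18B, chr17:43025122-43025151, minus strand: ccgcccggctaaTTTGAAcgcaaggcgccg
KIF15, chr3:44803239-44803268, plus strand: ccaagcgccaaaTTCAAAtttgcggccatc
KIF18A, chr11:28129696-28129725, minus strand: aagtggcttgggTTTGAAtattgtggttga
KIF22, chr16:29802033-29802062, plus strand: ggcaccggggaaTTCGAAtgggagaggcgg
KIF14, chr1:200589861-200589890, minus strand: gcggggcgcccaTTCAAAttgcggccttct

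KIF20B held a pair of CHR elements that abut, and the element shown for KIF22 is the TTCGAA form. Not all of these elements stood before the start. Counted from the start on, the CHR began at base 2 in KIF14, 3 in KIF18B, 5 in KIFC1 and 25 in KIF20B. All 30 bases of the windows of KIF23, KIF15 and KIF20B lay in annotated exons. KIF2C and KIF20A held no searched form of the CHR in the window and had log2 ratios of -0.94 and -0.999. KIF14, KIF18A and KIF22 held such a form and lay at -0.21, -0.40 and -0.36. A searched form was held by 10 of the 12 measured mitotic kinesins. With so few lacking it, the ratios of members with and without it cannot be compared. Whether the element bears on the ratio was not tested.

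**Figure D4:**
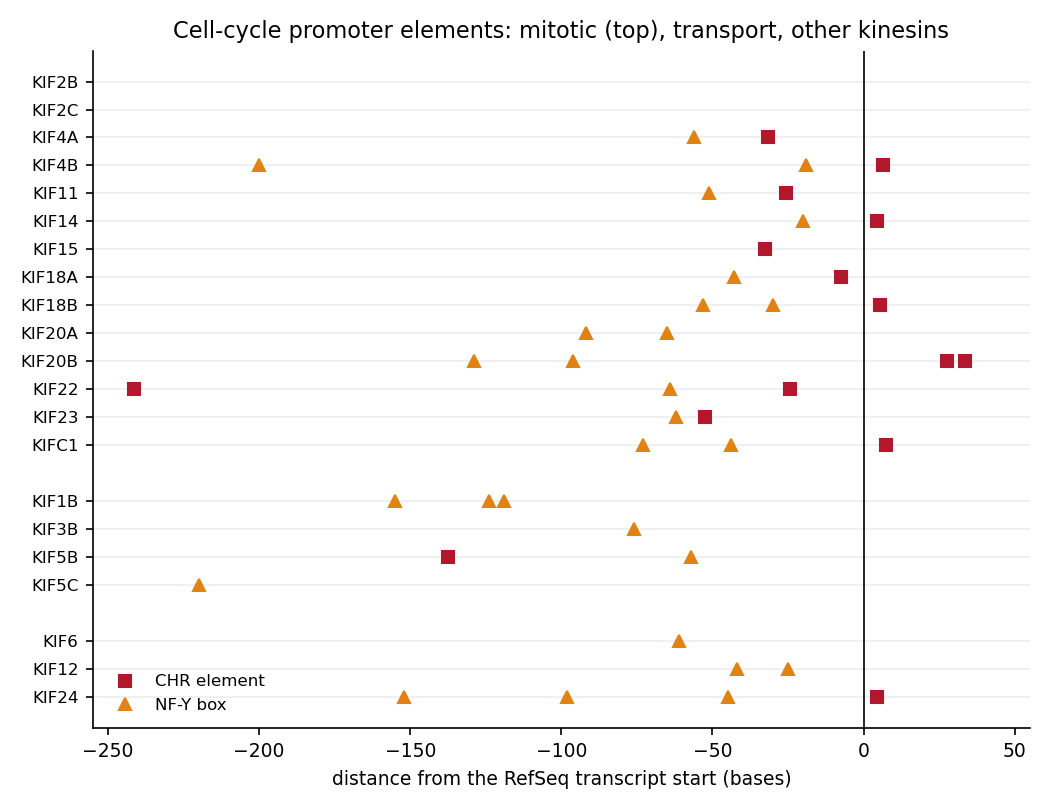
Places of the CHR element (squares) and the NF-Y box (triangles) along the RefSeq promoter, as distance in bases from the transcript start, for each mitotic kinesin and for those transport and other kinesins with at least 1 match. The NF-Y box is the CCAAT of the text. In 10 mitotic kinesins a CHR lies on the inner side of an NF-Y box, and KIF2C and KIF2B have no match to the searched letters of either.

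Among transport kinesins, the pair that held most of the counts had nearly equal levels in both libraries. KIF5B, the ubiquitous heavy chain of kinesin-1, had 356.6 CPM (12604 counts) in the CCE library and 381.8 CPM (2123 counts) in the control library, at a log2 ratio of -0.10 (-0.17 to -0.03). KIF1C, which moves integrin-bearing vesicles and Golgi-derived cargo, had 277.4 CPM (9806 counts) in the CCE library and 257.0 CPM (1429 counts) in the control library, at 0.11 (0.03 to 0.19). These 2 genes held 59.5% of transport kinesin counts in the CCE library and 59.7% in the control library. Both intervals exclude 0, at levels in CCE cells of 93.4% for KIF5B and 107.96% for KIF1C of those in control cells.

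The kinesin-2 subunits, which pair up to move cargo in cilia and on endosomes, lay around 0. KIF3B had 100.4 CPM (3547 counts) in the CCE library and 87.9 CPM (489 counts) in the control library, at 0.19 (0.05 to 0.33). Its partner KIF3A had 528 counts in the CCE library and 80 counts in the control library, at 0.05 (-0.29 to 0.41). KIF3C had 818 counts in the CCE library and 139 counts in the control library, at -0.11 (-0.37 to 0.16). A difference was not detectable at this depth for KIF3A and KIF3C, and the intervals of all 3 overlapped.

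The measured kinesin-3 motors of the transport class, which carry vesicles and mitochondria, had ratios above 0, KIF1C included. KIF14, of the same family, is in the mitotic class. KIF16B, which carries early endosomes, had 18.4 CPM (650 counts) in the CCE library and 14.2 CPM (79 counts) in the control library, at 0.37 (0.03 to 0.73). KIF1B had 45.3 CPM (1600 counts) in the CCE library and 35.2 CPM (196 counts) in the control library, at 0.36 (0.15 to 0.58). KIF13A, a motor of recycling endosomes, had 49.4 CPM (1746 counts) in the CCE library and 39.6 CPM (220 counts) in the control library, at 0.32 (0.12 to 0.53). These 3 motors had nearly the same ratio. KIF13B had 662 counts in the CCE library and 86 counts in the control library, at 0.28 (-0.05 to 0.62), with 7.77% of its exonic length shared with genes on the opposite strand. None of them reached 1.5-fold. The intervals of KIF16B, KIF1B and KIF13A lay above 0, as did that of 30.1% of all measured genes.

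The C-terminal motors of the transport class were on the other side. KIFC3, a minus-end-directed motor, had 132.3 CPM (4677 counts) in the CCE library and 166.0 CPM (923 counts) in the control library, at -0.33 (-0.43 to -0.22), the lowest ratio of the measured transport class, with 5.60% of its exonic length shared with opposite-strand genes. KIFC2 had 993 counts in the CCE library and 170 counts in the control library, at -0.12 (-0.36 to 0.12), and it shares 17.8% of its exonic length with FOXH1 on the opposite strand. Of the 4 transport kinesins under 1 CPM, the neuronal motors KIF1A and KIF5A had 1 and 2 counts in the CCE library and 0 counts in the control library. KIF17 had 13 counts in the CCE library and 6 counts in the control library. KIF5C had 0 counts in the CCE library and 5 counts in the control library, with a counting interval that ends at a log2 ratio of -2.54.

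The other kinesins spread widest. KIF21A, which restrains microtubule growth at the cell cortex, had 39.5 CPM in the CCE library and 19.96 CPM in the control library, at 0.98 (0.70 to 1.28), from 1395 and 111 counts. It was the highest measured kinesin, 1.98-fold higher and just short of the 2-fold threshold, which 4.36% of all measured genes passed upward. KIF27, a relative of the ciliary kinesin KIF7, had 16.6 CPM (585 counts) in the CCE library and 10.6 CPM (59 counts) in the control library, at 0.64 (0.25 to 1.05). KIF21A and KIF27 were the only measured kinesins at least 1.5-fold higher, 2 of 30, against 12.1% of all measured genes. KIF27 shares 14.2% of its exonic length with genes on the opposite strand.

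KIF9, of motile cilia, had 683 counts in the CCE library and 82 counts in the control library, at 0.39 (0.06 to 0.74) and shares 17.8% of its exonic length with KIF9-AS1 and KLHL18 on the opposite strand. KIF7, which sits at the tip of primary cilia in Hedgehog signalling, had 518 counts in the CCE library and 89 counts in the control library, at -0.13 (-0.45 to 0.21). It shares 10.8% of its exonic length with TICRR on the opposite strand, and KIF2A shares 18.7% with DIMT1 and another gene. KIF24, which acts at the mother centriole against cilium growth, had 19.5 CPM (689 counts) in the CCE library and 25.5 CPM (142 counts) in the control library, at -0.39 (-0.65 to -0.12). KIF2A, a microtubule depolymerase at spindle poles that also prunes neuronal branches, had 50.2 CPM (1773 counts) in the CCE library and 60.6 CPM (337 counts) in the control library, at -0.27 (-0.44 to -0.10). KIF24 was the other kinesin with a CHR in its promoter. KIF21B had 27 counts in the CCE library and 7 counts in the control library, too few to place its ratio of -0.72 (-1.96 to 0.72). The 6 other kinesins under 1 CPM had 10 counts or fewer in either library: KIF6, KIF12 and KIF26A had 0 in both, KIF19 had 1 count in the CCE library and 0 in the control library, KIF25 had 1 in the CCE library and 5 in the control library (log2 ratio -4.99, interval -10.55 to -1.83), and KIF26B had 10 in the CCE library and 5 in the control library.

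Levels of different genes were compared per kilobase of exonic sequence. KIF5B was the most abundant kinesin in both libraries, at 60.8 CPM per kb in the CCE library (counting interval 59.7 to 61.9) and 65.1 CPM per kb in the control library (62.3 to 67.9), followed by KIF1C. In the control library KIFC1 and KIF2C came next, at 21.8 CPM per kb (19.7 to 24.2) and 21.3 CPM per kb (19.3 to 23.4), and could not be ordered within counting error. In the CCE library these 2 genes ranked 5 and 6, at 11.4 CPM per kb (10.8 to 12.1) and 11.1 CPM per kb (10.5 to 11.7), below KIF3B at 16.4 and KIFC3 at 13.8. KIF23 ranked 13 of 42 in the CCE library and 10 of 42 in the control library. Union exonic lengths count all annotated isoforms, so these levels understate genes with long rare exons.

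The mRNAs of proteins that work with mitotic kinesins also had ratios below 0. The list held 5 partners, each with an interval below 0, and their median log2 ratio was -0.76. Of all measured genes, 25.1% had such an interval. The partners were deeper, at a median of 86.1 CPM in the control library against 22.3 CPM for all measured genes. A ratio at least 1.5-fold lower was seen in 3 of the 5, against 11.3% of all measured genes. TPX2 and PRC1 had the highest counts, and the others are named after their values were seen. CENPE, a kinetochore kinesin whose symbol does not begin with KIF, had 50.6 CPM in the CCE library and 86.1 CPM in the control library, at -0.77 (-0.91 to -0.62). PRC1, the bundling protein that recruits KIF4A, lay at -0.76 (-0.86 to -0.65), and HMMR, which helps place TPX2 and KIF11 at the poles, at -0.78 (-1.24 to -0.29). TPX2, which targets KIF11 and KIF15 to the spindle, lay at -0.47 (-0.56 to -0.39). RACGAP1, which binds KIF23 in centralspindlin, lay at -0.43 (-0.58 to -0.27), wholly above the interval of KIF23.

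Light chains and cargo adaptors had a median of -0.04 over 12 members, of which 1 was at least 1.5-fold lower and 0 higher, against 11.3% and 12.1% of all measured genes. That member was MAPK8IP3, or JIP3, an adaptor of axonal transport, with 14.5 CPM in the CCE library and 31.1 CPM in the control library, at -1.10 (-1.35 to -0.85). The light chain gene KLC2 lay at -0.03 (-0.17 to 0.11) and the adaptor gene SPAG9, with the highest ratio of the list, at 0.53 (0.42 to 0.65). Cytoplasmic dynein and dynactin, the opposing minus-end motor and its activator, had a median of 0.01 over 16 measured members of 17. DCTN3, a dynactin subunit named after its value was seen, was the 1 of 16 at least 1.5-fold lower (11.3% of all measured genes), at -0.62 (-0.76 to -0.48). The dynein heavy chain gene DYNC1H1 lay at -0.06 (-0.11 to -0.01) and the light chain gene DYNLL1 at -0.30 (-0.36 to -0.23).

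Length and base composition were compared between the classes. The median exonic length was 4999 bases for measured mitotic and 7733 bases for measured transport kinesins, and the median GC content 43.9% and 47.7%. When each ratio was centred on protein-coding genes of the same GC decile, the medians were -0.86 for mitotic and 0.14 for transport kinesins. Centred on the same length decile they were -0.92 and 0.01. All 12 mitotic kinesins stayed below 0 under both.

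**Figure D5:**
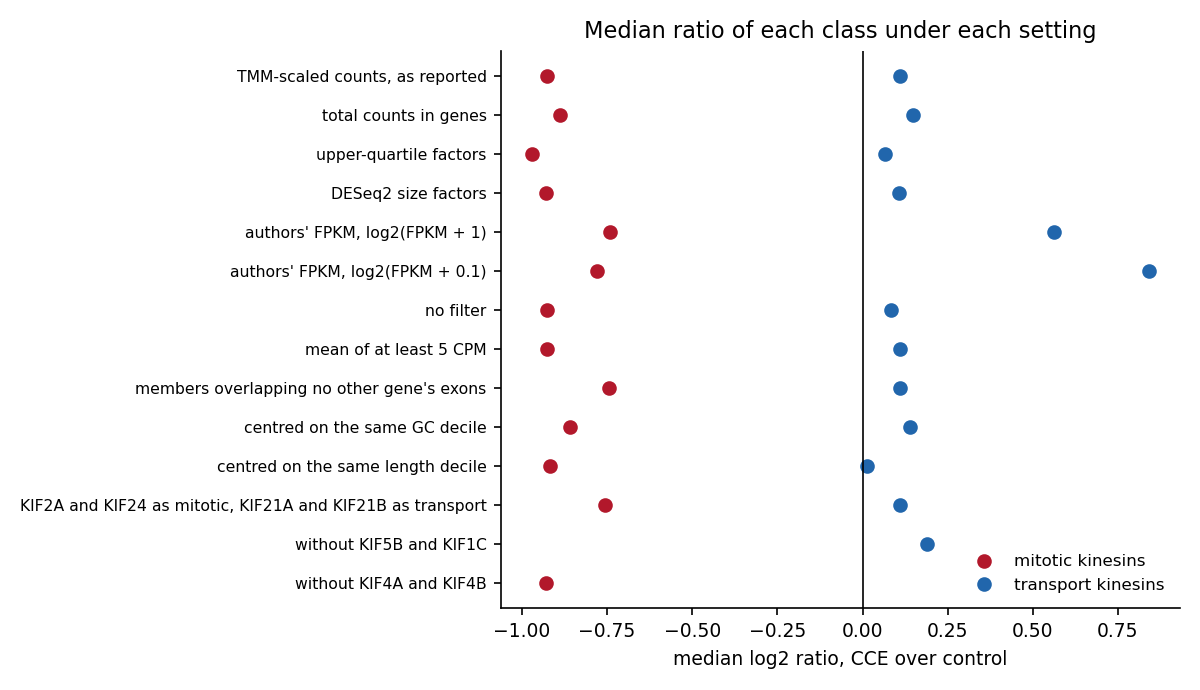
Median log2 ratio, CCE over control (horizontal axis), of measured mitotic and transport kinesins under each scaling, unit, filter or choice of members (rows). Mitotic medians lie between -0.97 and -0.74, and transport medians between 0.01 and 0.84, the largest being those from the authors' FPKM.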

How the data were processed

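Counts per Ensembl gene and FPKM values were deposited by the authors for each of 2 libraries. HISAT2 and the builds hg19 and GRCh37 are listed, without their role, per the submitters' processing notes. The counter, its strand setting and the FPKM program: not given in the sources used here. Left out were the 5 rows of each count table that name no gene (66.8% of CCE and 62.9% of control records). The deposited FPKM, whose gene IDs repeat, were summed per gene, and their depth is unknown.

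Symbols and exons came from GENCODE 44 lifted to GRCh37 (55665 IDs matched). Counts were scaled with TMM factors (edgeR 4.0.16, R 4.3.3; DESeq2 1.42.0 factors as an alternative). The log2 ratio, CCE over control, has no pseudocount; its exact 95% Clopper-Pearson interval (scipy 1.17.1) comes from the share of a gene's counts in the CCE library. Reads are not independent molecules, so intervals and the floor of 3 counts cover counting error only. A call needed a 2-fold (or 1.5-fold) ratio and an interval excluding 1. The procedure was run on simulated Poisson counts with known folds and no variation between libraries, which is what the interval assumes. That run cannot show how well the interval covers differences between real libraries. Where exons overlap on opposite strands, reads cannot be assigned with certainty.

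Every member is accounted for; of the partner lists, those past 2-fold and up to 2 with the highest counts were named by rule, and others as the text says. Members and lists were chosen with earlier results of these data known.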

Additional observations from a re-analysis of the deposited data

How the results depend on the processing

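The direction of the mitotic and transport medians and of their difference held under every alternative run, and so did that of the summed mitotic counts. The difference of medians lay at -1.04. It was -0.86 over members that overlap no other gene, -0.87 with KIF2A and KIF24 as mitotic and KIF21A and KIF21B as transport kinesins, -0.93 with length centring, -1.12 without KIF5B and KIF1C, and -1.31 and -1.62 with the authors' FPKM (pseudocounts of 1 and 0.1), where the transport median was 0.56 and 0.84 and the summed transport ratio 0.091 with either. With upper-quartile factors the mitotic median was -0.97 and the summed transport ratio -0.0503. Over members that overlap no other gene, the summed ratios were -0.72 for mitotic and -0.0463 for transport kinesins, and -0.73 for mitotic kinesins with KIF2A and KIF24 added. The summed transport ratio, -0.0054 as reported, was near 0 on either side.

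Counts at 2-fold depended on the setting. Lower mitotic kinesins, 1 with the reported scaling, were 2 with upper-quartile factors, DESeq2 factors or length centring, 4 with GC centring or FPKM, 8 at 1.5-fold and 0 among members that overlap no other gene. Lower kinesins in all classes were 2, 4 and 8 under the same count settings and 0 without overlapping members. At 1.5-fold, 11.3% of all measured genes were lower. With FPKM 6 of 30 kinesins were lower, against 13.9% and 18.2% of all measured genes (pseudocounts of 1 and 0.1). With no filter 3 were lower. Both with FPKM and with no filter, 1 of the lower members was a transport kinesin. Shares of all genes were not worked out for the other scalings, the centrings or no filter. Higher kinesins, 0 as reported, were 1 with total counts, 2 at 1.5-fold, and 11 and 13 with FPKM, against 14.4% and 21.7% of all measured genes. The cause of the FPKM differences was not tested; 9 of 30 measured kinesins were at 0 FPKM in the control library while holding 7 to 578 counts there. FPKM turned the sign of 11 of 30 members, and KIF21B was listed at 0 in both libraries. GC centring turned 3 (KIF7, KIFC2 and KIF3A) and length centring 1 (KIF3A). The other scalings turned none and shifted the median of all genes by 0.04 (total counts), -0.04 (upper quartile) and -0.004 (DESeq2). Leaving out KIF4A and KIF4B, or KIF5B and KIF1C, was chosen after seeing the data and changed no direction of a median. No paired analysis was possible because each group has 1 library, and no replicate could be left out.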

Other observations

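The promoter elements of the mitotic kinesins were also looked at over all measured protein-coding genes with a RefSeq promoter, a comparison chosen after seeing the data. Of 805 such genes with both CHR and CCAAT, kinesins left out, 15.4% were at least 1.5-fold lower in the CCE library, and 11.2% were at least 1.5-fold higher. Of 4707 genes with neither element these shares were 10.01% and 11.96%. The median log2 ratios were 0.02 and 0.06. The elements were found in many genes whose counts did not differ by 1.5-fold. Matches took no account of the order of the elements, the distance between them or whether they lay in the same promoter of a gene. The 8 in 12 lower among measured mitotic kinesins covers members with and without both elements, which 9 of the 12 held. It is therefore not directly comparable with these shares, and a part of the elements in the ratios was not tested. No test was made, since genes are not replicates of the treatment.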
